A study of Mus musculus with 12 samples.

Results

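The genes described here encode voltage-gated and potassium ion channels, with their auxiliary subunits. They were taken by symbol: protein-coding mouse genes that begin with Kcn, with Cacn, with Hcn and a digit, or with Scn, a digit and a or b, and that reached at least 10 counts in at least 3 of the 12 samples. Of the 138 protein-coding genes with these prefixes, 82 met the count rule, among 13410 protein-coding genes that met it in the whole series. A further 47 had counts below the rule, among them Kcnma1, the large-conductance calcium-activated potassium channel, with 25 counts in all samples together. No read fell on the remaining 9, and at 278861498 counts in all, a count of 0 allows a level of up to 0.0108 CPM (3 counts over the 12 samples, counting error only).

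The left ventricle (LV) of mice aged 12 weeks was measured by RNA sequencing in 4 groups of 3 animals, named here by animal number. Wt offspring came from non-diabetic (replicates 25, 42 and 89) or diabetic pregnancy (50, 7 and 80), and so did Hif1a+/- offspring (non-diabetic 14, 32 and 44; diabetic 66, 72 and 77). The dams were FVB females, made diabetic with streptozotocin where the pregnancy is called diabetic, and the sires were Hif1a+/- males without diabetes. Hif1a encodes the oxygen-regulated subunit of hypoxia-inducible factor 1, and its heterozygous deletion (the tm1jhu allele on the FVB background) was present in every cell type, so no difference can be placed in 1 cell type. The animals of a group came from different litters, and P values measure the spread between these animals. The comparisons ask whether channel transcripts in the adult LV differ with the mother's diabetes, with the genotype of the offspring, or with both.

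Total counts per sample were between 16132442 and 39812939. Summed cardiomyocyte markers lay between 90590 and 101700 CPM in the 12 samples, where CPM is the count scaled to library size with TMM factors, and summed atrial markers between 49.0 and 97.1 CPM, so the samples carried the transcripts of ventricular muscle. Hif1a itself was at 64.8 to 89.4 CPM in the 6 Hif1a+/- samples and at 47.9 to 71.8 CPM in the 6 Wt samples, with a log2 fold change averaged over pregnancies of 0.43 (unadjusted p = 0.000243, adjusted p = 0.596 in edgeR and 0.0315 in DESeq2). The libraries read the 3′ end of transcripts and the deleted part of the gene is not given in the sources used here, so this level could not be used to check the genotype. As to sex, the sample labels say female, whereas the design text says male. In 11 samples the 4 Y-linked marker genes exceeded Xist, and in Hif1a+/- diabetic replicate 72 Xist stood at 158 CPM and the Y-linked sum at 1.14 CPM. Leading differences that include replicate 72 are therefore also given without it. The summed macrophage and leukocyte markers were between 448 and 666 CPM in diabetic Hif1a+/-, between 226 and 330 CPM in non-diabetic Hif1a+/-, between 309 and 505 CPM in diabetic Wt and between 297 and 423 CPM in non-diabetic Wt. Summed fibroblast markers were between 1646 and 2307 CPM in diabetic and between 1589 and 1752 CPM in non-diabetic Hif1a+/-, and summed mural markers (smooth muscle and pericyte) between 953 and 1059 CPM and between 1062 and 1173 CPM.

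A cardiac action potential is the ordered opening of these channels. Sodium channels carry the upstroke, L-type calcium channels hold the plateau and trigger contraction, and several potassium currents repolarise the cell and then hold the resting potential. The mouse ventricle repolarises quickly, mainly through the fast transient outward current of Kv4 subunits with the accessory protein KChIP2 and through delayed rectifiers of the Kv1 and Kv2 families. HCN channels carry the pacemaker current and are known chiefly from the sinus node.

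The mean over 12 samples was 100 CPM or more in 9 members, between 10 and 100 CPM in 20, between 1 and 10 CPM in 30 and below 1 CPM in 23, and the 10 highest members held 75.2% of all counts on channel genes. Among the highest were Kcnip2, which encodes KChIP2 (448 ± 41.6 CPM, SD, n = 12), Kcnk3, the background potassium channel TASK-1 (423 ± 27.9 CPM), and Cacna1c, the pore of the L-type calcium channel (356 ± 40.1 CPM). Kcnip2 and Kcnk3 differed by 25.1 CPM, less than the SD of Kcnip2, whereas Cacna1c exceeded the next gene, Cacna2d1, in 12 of 12 samples. Among the 29 neighbouring pairs of the 30 highest members, the gap was larger than the SD of both genes in 8.

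The order depended on whether levels were divided by exon length. CPM counts reads without regard to length, which suits 3′ libraries, and on CPM per kilobase of merged exons Kcnip2 led with 129, followed by Kcnk3 with 106, while Cacna1c moved from rank 4 to rank 11. The 10 highest members shared 7 genes between both scales. Kcng2, which encodes a silent subunit that modifies Kv2 channels, ranked 8 by CPM and 4 per kilobase.

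**Figure D1:**
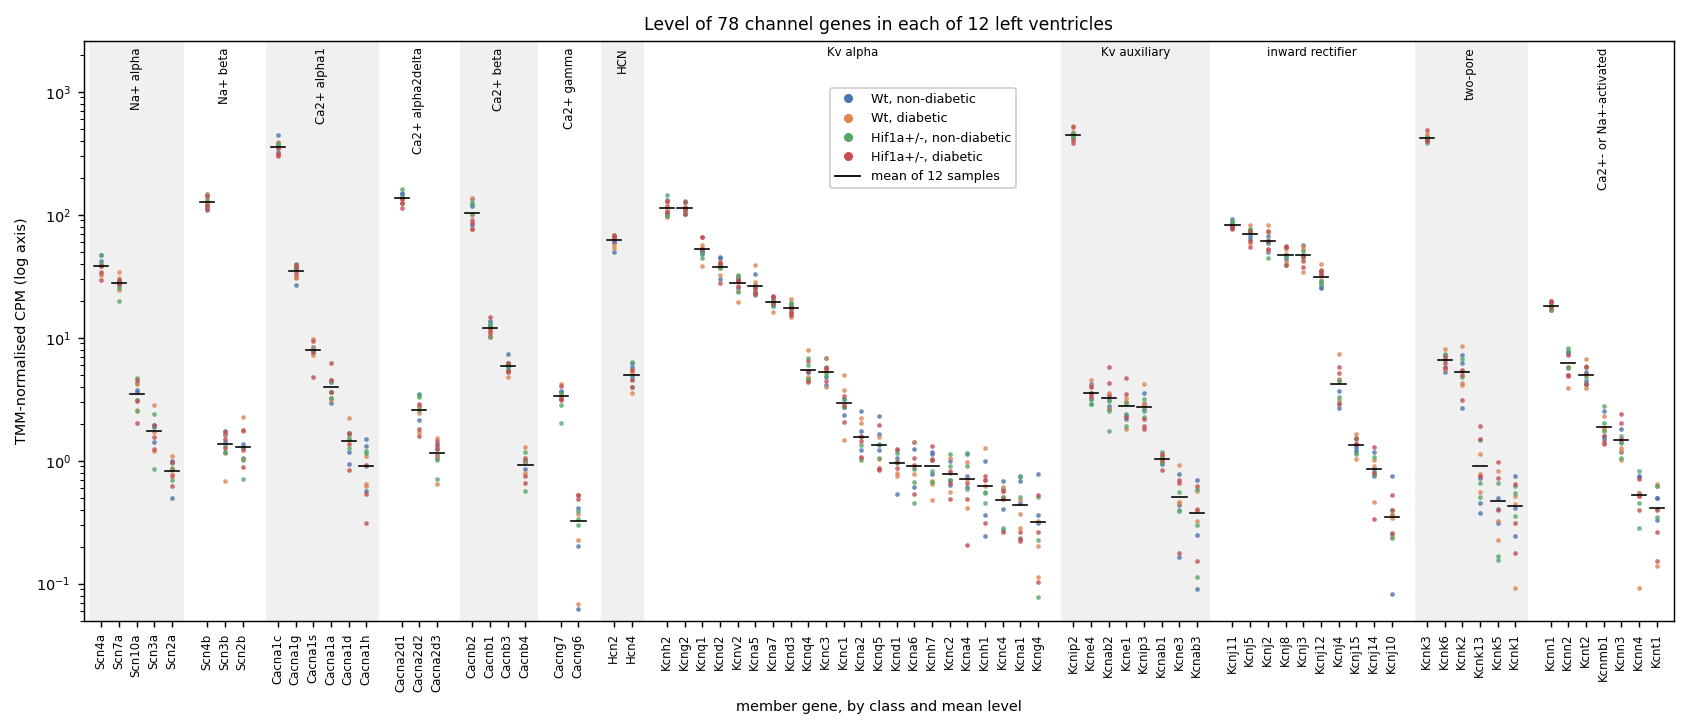
Level of 78 channel genes in each sample, as TMM-normalised CPM on a log axis, with genes grouped by class and ordered by mean level within it. Points are samples, coloured by group, and black lines are means of the 12 samples; a few genes stand at 100 CPM or more, and the 4 groups lie over each other for most genes.

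By class, the 8 auxiliary subunits of voltage-gated potassium channels summed to 462 CPM (96.9% from Kcnip2), the 23 pore-forming Kv subunits to 454 CPM, the 6 two-pore channels to 436 CPM (96.9% from Kcnk3) and the 6 calcium channel alpha1 subunits to 405 CPM (87.8% from Cacna1c). Kv subunits had no such leader: Kcnh2, the pore of the rapid delayed rectifier, and Kcng2 stood at 114 and 113 CPM, and 7 others were above 10 CPM. The 10 inward rectifiers were also shared out, with 24.0% from Kcnj11, the pore of the ATP-sensitive potassium channel. The 3 HCN genes summed to 67.7 CPM, of which Hcn2 gave 91.7%.

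The sum over all members was 3289 ± 292 CPM in non-diabetic Wt, 3287 ± 102 CPM in diabetic Wt, 3276 ± 54.6 CPM in non-diabetic Hif1a+/- and 3179 ± 124 CPM in diabetic Hif1a+/- (SD, n = 3 each). The group means differed by less than the SD of non-diabetic Wt, the largest SD, whose samples stood at 3619, 3182 and 3065 CPM. The Hif1a+/- means differed by more than the SD of non-diabetic Hif1a+/- and by less than that of diabetic Hif1a+/-. The calcium channel alpha1, alpha2delta and beta classes had their lowest means in diabetic Hif1a+/-. Of these sums, Cacna1c gave 87.8%, Cacna2d1 97.3% and Cacnb2 84.7%, so they mostly repeat these 3 genes, described singly below. The gamma class had its highest mean there, at 3.96 ± 0.53 CPM, against 3.825 ± 0.536 CPM in diabetic Wt, a difference within the SD. In diabetic Hif1a+/- the alpha1 sum was 372 ± 23.1 CPM, against 420 ± 10.5 CPM in non-diabetic Hif1a+/-. For alpha2delta it was 128 ± 10.6 against 150 ± 13.6 CPM and for beta subunits 103 ± 8.50 against 136 ± 11.9 CPM. Class sums were described without a test.

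**Figure D2:**
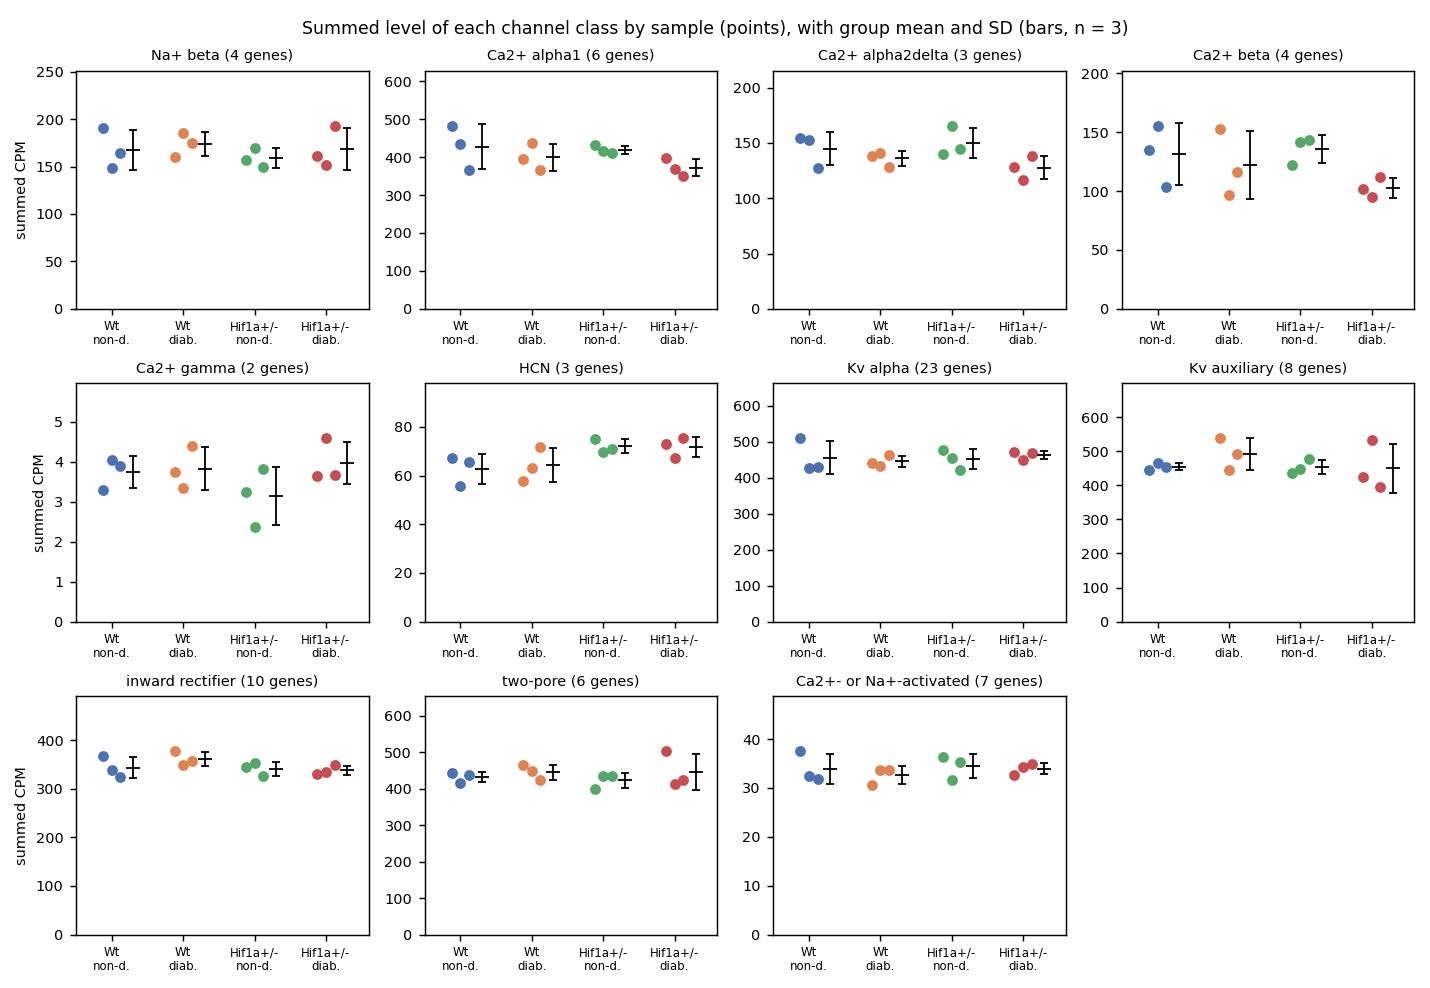
Summed CPM of 11 channel classes (vertical axes, each from 0 with its own range) by group, with samples as points and group mean and SD (n = 3) as bars. Groups overlap in most classes. For calcium channel alpha1, alpha2delta and beta subunits, the 3 sums of diabetic Hif1a+/- lie below the 3 of non-diabetic Hif1a+/-.

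No member passed edgeR's quasi-likelihood test at an adjusted p below 0.1 in any of the 8 comparisons, and neither did any other gene (0.00% of the 14706 genes tested, 81 of them members, in each comparison). At an unadjusted p below 0.05 in edgeR, the counts of members are given beside the share of all genes. Maternal diabetes gave 3 of 81 members in Wt (all genes: 2.78%) and 10 of 81 in Hif1a+/- (12.0%), where 4 were higher (5.72% of all genes) and 6 lower (6.28%). The Hif1a+/- genotype gave 1 of 81 after non-diabetic pregnancy (0.959%) and 7 of 81 after diabetic pregnancy (5.35%), and diabetic Hif1a+/- against non-diabetic Wt gave 9 of 81 (8.85%). The counts were 2 for the interaction (2.52%), 8 for diabetes averaged over genotypes (11.3%) and 5 for genotype averaged over pregnancies (2.69%).

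DESeq2 called 2 members at an adjusted p below 0.1. Kcnab2 was called for maternal diabetes in Hif1a+/-, where DESeq2 called 1.44% of all genes, and Scn4a for diabetes averaged over genotypes, where it called 1.46%. It called no member in the other 6 comparisons or in the test of any difference. There it called 0.0148% of all genes for diabetes in Wt, 0.00369% for genotype after non-diabetic and 0.155% after diabetic pregnancy, 0.453% for diabetic Hif1a+/- against non-diabetic Wt, 0.00% for the interaction, 0.0259% for averaged genotype and 0.760% for any difference. The smallest adjusted p of any member in edgeR was 0.266 for diabetes in Hif1a+/- and 0.278 for diabetes averaged over genotypes.

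**Figure D3:**
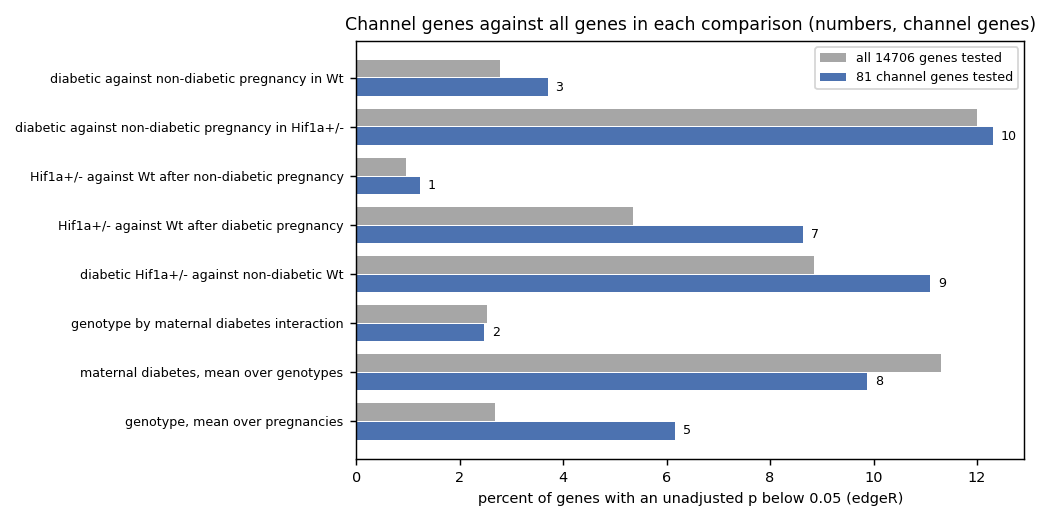
Percent of genes with an unadjusted p below 0.05 in edgeR in each comparison, for all 14706 genes tested (grey) and for the 81 channel genes tested (blue, with their number). Channel genes reach 10 of 81 in Hif1a+/- with diabetes, where the share of all genes is 12.0%.

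Of the 29 members at 10 CPM or more, 28 had a 95% interval within a 1.5-fold change for diabetes in Wt, 27 for diabetes in Hif1a+/-, 29 for genotype after non-diabetic pregnancy and 26 after diabetic pregnancy. Below 10 CPM, 7, 7, 7 and 9 of 52 members had such an interval, so a change of 1.5-fold was within the interval of most scarce channels. Replicates of channel genes scattered slightly more than other genes of their level: the median biological coefficient of variation was 12.1% against 10.4% for all genes between 10 and 100 CPM, and 11% against 9.88% above 100 CPM.

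Sodium channels. Scn4a, known as the sodium channel of skeletal muscle, had lower values after diabetic pregnancy in both genotypes. In non-diabetic Wt it was at 47.3, 39.1 and 42.0 CPM and in diabetic Wt at 32.8, 32.7 and 38.3 CPM. In non-diabetic Hif1a+/- it was at 46.8, 38.8 and 40.0 CPM and in diabetic Hif1a+/- at 29.7, 34.2 and 38.3 CPM. All 6 diabetic samples lay below all 6 non-diabetic ones, by a margin of 38.3 against 38.8 CPM at the closest, a pattern that 0.333% of all genes shared in this direction. The log2 fold change was -0.31 (SE 0.12) in Wt and -0.30 (SE 0.12) in Hif1a+/-, and averaged over genotypes -0.30 (SE 0.08), with an adjusted p of 0.278 in edgeR and 0.0928 in DESeq2. Without replicate 72 the averaged value was -0.30, and leaving out each sample in turn gave -0.35 to -0.26 in edgeR. The DESeq2 call held on leaving out 3 of the 12 samples (non-diabetic Wt 89, diabetic Wt 80 and diabetic Hif1a+/- 77) and was lost on leaving out any of the other 9, when the adjusted p reached up to 0.298.

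The other sodium channel genes named here gave no unadjusted p below 0.05 in edgeR. Scn4b, a cardiac beta subunit, stood at 126 CPM over the 12 samples. Scn10a, first known from sensory neurons, was at 2.02 to 4.71 CPM, and Scn7a, a sodium-sensing relative, at 27.8 CPM on average.

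Calcium channels. The 3 main subunits of the ventricular L-type channel were lower in each diabetic Hif1a+/- sample than in each non-diabetic Hif1a+/- sample, although none passed the adjusted test in edgeR. The pore subunit Cacna1c was at 376, 366 and 360 CPM in non-diabetic Hif1a+/- and at 349, 314 and 302 CPM in diabetic Hif1a+/-. Cacnb2, the beta subunit that brings the pore to the membrane, was at 102, 126 and 123 CPM against 85.1, 76.1 and 90.9 CPM. Cacna2d1, the alpha2delta subunit, was at 136, 161 and 141 CPM against 124, 114 and 135 CPM. Such separation of 3 samples from 3 towards lower values was seen in 8 of 81 members and in 13.2% of all genes in this comparison, so it is common there.

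The log2 fold changes of these subunits with diabetes in Hif1a+/- were -0.19 for Cacna1c (95% interval -0.44 to 0.06), -0.48 for Cacnb2 (-0.90 to -0.05) and -0.23 for Cacna2d1 (-0.45 to -0.02). In edgeR the unadjusted p was 0.0309 for Cacnb2, with an adjusted p of 0.385. Limma-voom with sample weights called Cacnb2 (adjusted p = 0.0872), in a comparison in which it called 6.37% of all genes. Without replicate 72 the values were -0.40 for Cacnb2 and -0.16 for Cacna2d1, with unadjusted p values of 0.10 and 0.159 in edgeR, and without non-diabetic replicate 32 that of Cacna2d1 was -0.14 (unadjusted p = 0.197). In Wt the same changes were -0.12, -0.10 and -0.09, with samples of Cacnb2 overlapping widely (82.4 to 135 CPM in non-diabetic and 77.2 to 137 CPM in diabetic Wt). The difference between genotypes was not past the test for any of the 3 subunits.

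The T-type pores were of different abundance: Cacna1g was at 35.1 CPM over the 12 samples and Cacna1h at 0.899 CPM. Cacna1g had an averaged log2 fold change with diabetes of 0.02 (95% interval -0.17 to 0.21). For Cacna1h the averaged change was -0.67 (-1.31 to -0.03), with overlapping samples between 0.309 and 1.49 CPM. It was -0.87 without replicate 72, and leaving out each sample in turn gave -0.87 to -0.54. Transcripts of the skeletal muscle pore Cacna1s (7.93 CPM) and the neuronal pore Cacna1a (3.95 CPM) were present at low levels.

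HCN channels. Hcn2, the main ventricular isoform, was at 59.9, 49.7 and 60.4 CPM in non-diabetic Wt and at 68.4, 65.5 and 66.0 CPM in non-diabetic Hif1a+/-, without overlap. Such separation upwards was seen in 2 of 81 members and in 375 of 14706 genes in that comparison. In diabetic Wt Hcn2 was at 53.9, 57.3 and 65.9 CPM and in diabetic Hif1a+/- at 66.4, 63.1 and 68.1 CPM, and here the groups overlapped. With genotype the log2 fold change was 0.23 after non-diabetic pregnancy (95% interval 0.03 to 0.44) and 0.16 after diabetic pregnancy (-0.05 to 0.37). Averaged over pregnancies it was 0.20 (0.05 to 0.34), with an unadjusted p of 0.0126 and an adjusted p of 0.999 in edgeR; leaving out each sample in turn gave 0.15 to 0.24, and 0.21 without replicate 72. With diabetes the change was 0.06 in Wt (-0.15 to 0.27) and -0.02 in Hif1a+/- (-0.22 to 0.19).

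Hcn4, the sinus node isoform, was at 5.01 CPM and its averaged log2 fold change with diabetes was -0.18 (-0.51 to 0.15).

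Voltage-gated potassium channels. Among the transient outward current genes, Kcnd2, the Kv4.2 pore, had a log2 fold change with diabetes of -0.13 in Wt (95% interval -0.48 to 0.23) and -0.08 in Hif1a+/- (-0.44 to 0.27), and its partner Kcnip2 0.11 (-0.13 to 0.35) and -0.02 (-0.26 to 0.22). Kcnip2 exceeded Kcnd2 between 9.47-fold and 18.4-fold in single samples on the CPM scale. Kcnh2 had values of -0.03 (-0.37 to 0.31) and 0.05 (-0.29 to 0.39). Kcnd3, the Kv4.3 pore, was at 17.4 CPM against 37.8 CPM for Kcnd2.

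Kcnq1, the pore of the slow delayed rectifier, had its highest mean in diabetic Hif1a+/-. It was at 65.9, 52.3 and 66.3 CPM in diabetic Hif1a+/-, against 51.7, 44.9 and 49.2 CPM in non-diabetic Hif1a+/-, 50.7, 48.3 and 50.4 CPM in non-diabetic Wt and 53.6, 38.5 and 56.5 CPM in diabetic Wt. The samples of diabetic Hif1a+/- lay above both non-diabetic groups and overlapped those of diabetic Wt. Separation upwards from non-diabetic Hif1a+/- was seen in 6 of 81 members and in 1640 of 14706 genes. From non-diabetic Wt it was seen in 6 of 81 members and in 1098 of 14706 genes. The log2 fold change of Kcnq1 with diabetes in Hif1a+/- was 0.34 (SE 0.13), with an adjusted p of 0.368 in edgeR and 0.0797 in limma-voom, and without replicate 72 it was 0.45. Exons of Kcnq1 overlap the antisense transcript Kcnq1ot1, and reads of both cannot be told apart unless strand was used in counting. Its partner Kcne1 had a log2 fold change of 0.53 in the same comparison (95% interval -0.08 to 1.15).

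Kcna5, the Kv1.5 pore, had a lower mean in Hif1a+/- than in Wt. It was at 32.9, 23.9 and 26.9 CPM in non-diabetic Wt, 28.1, 39.3 and 25.4 CPM in diabetic Wt, 26.1, 22.1 and 23.1 CPM in non-diabetic Hif1a+/- and 22.7, 25.5 and 23.0 CPM in diabetic Hif1a+/-. The 6 Hif1a+/- samples overlapped the lower Wt samples, and the highest value was that of diabetic Wt replicate 7. Averaged over pregnancies, its log2 fold change with genotype was -0.31 (SE 0.11), with an unadjusted p of 0.0149 and an adjusted p of 0.999 in edgeR. Without replicate 72 it was -0.34. After diabetic pregnancy it was -0.39, and -0.18 without diabetic Wt replicate 7.

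Kcnip3, a calcium sensor of the KChIP family, had its lowest mean in diabetic Hif1a+/-, at 1.90, 2.20 and 1.81 CPM, against 2.95, 2.79 and 4.23 CPM in diabetic Wt and 3.55, 2.87 and 2.62 CPM in non-diabetic Wt. These samples overlapped neither Wt group. Non-diabetic Hif1a+/-, at 3.19, 2.25 and 2.51 CPM, lay above them and overlapped both Wt groups. Separation downwards from diabetic Wt was seen in 4 of 81 members and in 532 of 14706 genes. From non-diabetic Wt it was seen in 4 of 81 members and in 1046 of 14706 genes. The log2 fold change with genotype after diabetic pregnancy was -0.74 (SE 0.22), the smallest p of any member in that comparison (unadjusted p = 0.00461, adjusted p = 0.862 in edgeR). Without replicate 72 it was -0.82.

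Kcnh7, an ERG-type pore of the nervous system, was scarce, with lower values after diabetes in Wt and higher ones in Hif1a+/-. It was at 1.18, 1.14 and 0.777 CPM in non-diabetic and 0.646, 0.477 and 0.686 CPM in diabetic Wt, and at 0.818, 0.676 and 1.01 CPM in non-diabetic and 1.03, 1.32 and 1.02 CPM in diabetic Hif1a+/-. The closest samples of the Hif1a+/- groups were at 1.006 and 1.016 CPM. The interaction was 1.20 on the log2 scale (SE 0.40), with an unadjusted p of 0.0105 and an adjusted p of 0.998 in edgeR. Without replicate 72 it was 1.08. Exons of Kcnh7 overlap those of Gca on the other strand. Kcna1, another Kv pore, was at 0.231, 0.264 and 0.221 CPM in diabetic Hif1a+/- (5 to 9 counts) against 0.747, 0.682 and 0.450 CPM in non-diabetic Wt, without overlap. Such separation downwards was seen in 4 of 81 members and in 1046 of 14706 genes in that comparison. Non-diabetic Hif1a+/- was at 0.234, 0.732 and 0.503 CPM, with its lowest sample among the diabetic ones, and diabetic Wt at 0.369, 0.477 and 0.286 CPM. Diabetic Hif1a+/- against non-diabetic Wt gave a log2 fold change of -1.35 (SE 0.43, adjusted p = 0.473 in edgeR), and -1.42 without replicate 72.

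Kcnab2, a Kv beta subunit with the fold of an aldo-keto reductase, was the member with the smallest p for diabetes in Hif1a+/-. The study lists it among its changed genes for another comparison, diabetic Hif1a+/- against non-diabetic Wt. There DESeq2 called no member, and edgeR gave log2 fold changes of 0.43 to 0.81 on leaving out each sample in turn. The list was made on these samples and so is no independent evidence. Kcnab2 was at 4.29, 3.35 and 5.74 CPM in diabetic Hif1a+/- and at 2.53, 1.75 and 3.07 CPM in non-diabetic Hif1a+/-, without overlap. Such separation upwards was seen in 6 of 81 members and in 1640 of 14706 genes in this comparison. In Wt Kcnab2 was at 2.62, 3.14 and 2.78 CPM after non-diabetic and 3.51, 2.66 and 3.54 CPM after diabetic pregnancy, with overlap. The diabetic samples of both genotypes overlapped as well. The log2 fold change was 0.85 in Hif1a+/- (SE 0.24), with an adjusted p of 0.266 in edgeR, 0.0919 in DESeq2 and 0.0588 in limma-voom. In Wt it was 0.17 (95% interval -0.35 to 0.70), and the interaction did not pass the test.

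Without replicate 72 the log2 fold change of Kcnab2 was 1.03 in edgeR and DESeq2 gave an adjusted p of 0.0342. The DESeq2 call was also kept without each of the 3 diabetic Wt samples and was lost on leaving out any of the other 8, the adjusted p reaching 0.524. Of the 9 macrophage and leukocyte markers tested, 8 were higher in diabetic than non-diabetic Hif1a+/- at an unadjusted p below 0.05 in edgeR. No marker of this list was at 0 in all samples. In the same comparison 3 of 9 fibroblast markers were higher and 2 of 10 mural markers lower at that p, beside 5.72% of all genes higher and 6.28% lower. The part of these markers in the result was not tested. In bulk tissue fewer cells of a type and less RNA per cell cannot be told apart. Exons of Kcnab2 also overlap those of Gm16334 on the same strand.

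**Figure D4:**
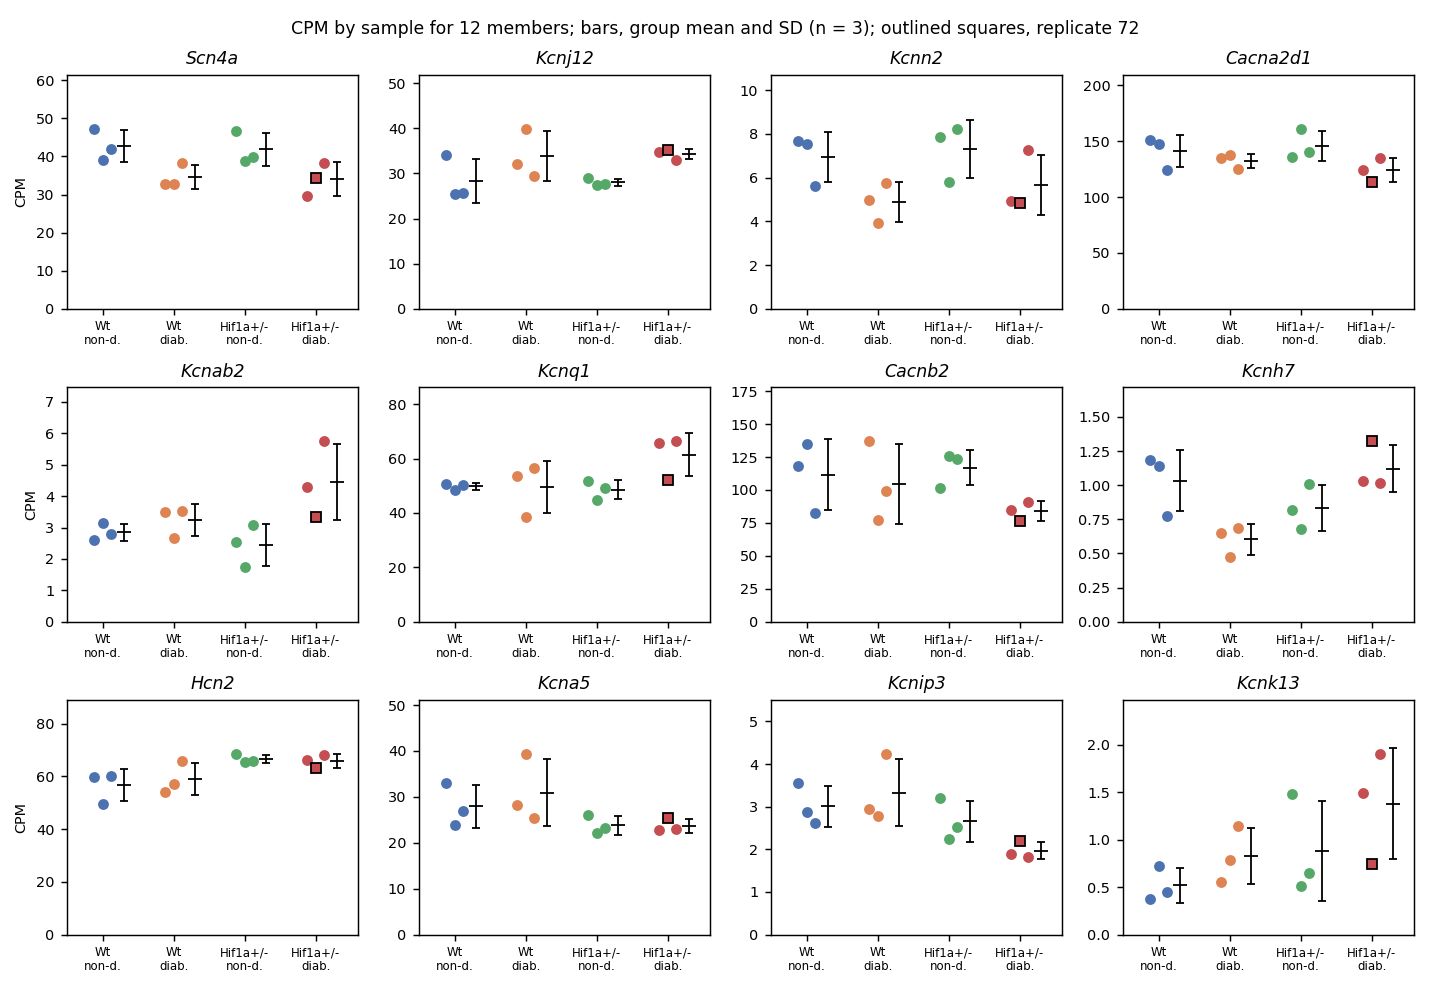
CPM by sample (points, coloured by group) for 12 channel genes, with group mean and SD as bars (n = 3) and replicate 72 as an outlined square; the vertical axes start at 0. Scn4a separates the 6 diabetic from the 6 non-diabetic samples. Kcnab2 has its highest mean in diabetic Hif1a+/-, whose samples overlap those of diabetic Wt.

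The sequence just before the start of a gene is shown for the 2 members that DESeq2 called and for Kcnk13, chosen after its values were seen as a second gene with matches. The core motif of hypoxia-inducible factor 1 was searched as ACGTG or GCGTG on both strands in the 250 bases before each RefSeq start in GRCm38.p6, and matches are in capitals (CACGC and CACGT are the motif on the other strand). The windows are Scn4a at chr11:106349391-106349640 on the minus strand, with no match, Kcnab2 at chr4:152448856-152449105 on the minus strand, with 2 matches, and Kcnk13 at chr12:99964249-99964498 on the plus strand, with 2 matches.
Scn4a: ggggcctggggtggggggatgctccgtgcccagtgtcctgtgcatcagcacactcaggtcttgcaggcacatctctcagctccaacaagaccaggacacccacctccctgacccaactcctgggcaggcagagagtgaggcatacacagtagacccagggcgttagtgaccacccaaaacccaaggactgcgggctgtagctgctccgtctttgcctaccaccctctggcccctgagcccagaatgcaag
Kcnab2: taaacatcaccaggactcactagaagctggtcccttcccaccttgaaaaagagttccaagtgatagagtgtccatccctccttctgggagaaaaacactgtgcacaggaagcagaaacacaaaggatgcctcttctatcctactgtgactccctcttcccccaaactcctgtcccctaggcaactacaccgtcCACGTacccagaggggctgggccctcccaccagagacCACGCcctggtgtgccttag
Kcnk13: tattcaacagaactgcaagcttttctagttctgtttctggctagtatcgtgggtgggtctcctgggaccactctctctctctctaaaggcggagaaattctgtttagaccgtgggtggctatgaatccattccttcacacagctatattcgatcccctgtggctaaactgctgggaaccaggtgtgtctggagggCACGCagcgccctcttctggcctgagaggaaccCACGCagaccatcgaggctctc

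A window was found for 58 of the 82 members, which had 82 windows, since some genes have several starts. The core was in at least 1 window of 25 of these 58 members (43.1%), against 48.4% of 16353 protein-coding genes. Kcnab2 has 3 windows, with 2, 0 and 5 matches. A match is a description of letters, not a site of binding.

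Inward rectifiers. Kcnj12, which encodes Kir2.2 of the resting current, had a higher mean after diabetic pregnancy in both genotypes. It was at 34.1, 25.5 and 25.7 CPM in non-diabetic and 32.2, 40.0 and 29.4 CPM in diabetic Wt, and at 29.0, 27.6 and 27.7 CPM in non-diabetic and 34.8, 35.3 and 33.0 CPM in diabetic Hif1a+/-. The Hif1a+/- groups did not overlap, and in Wt replicate 25 lay among the diabetic samples. Separation upwards with diabetes in Hif1a+/- was seen in 6 of 81 members and in 1640 of 14706 genes. Averaged over genotypes, the log2 fold change was 0.28 (SE 0.09), with an unadjusted p of 0.00881 and an adjusted p of 0.325 in edgeR. Leaving out each sample gave 0.21 to 0.35, and 0.27 without replicate 72.

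Kcnj2, the Kir2.1 pore and partner of Kcnj12, stood at 61.3 CPM, and its averaged change was 0.20 (95% interval -0.07 to 0.48). Of the genes for the pore of the ATP-sensitive potassium channel, Kcnj11 (Kir6.2) ranged from 77.2 to 92.7 CPM over the 12 samples and Kcnj8 (Kir6.1), known from vascular muscle, from 38.7 to 55.9 CPM. Their biological coefficients of variation were 7.90% and 12.9%. The muscarinic potassium channel genes Kcnj3 and Kcnj5, best known from atrium, were at 46.7 and 69.6 CPM. Neither had an unadjusted p below 0.05 in edgeR.

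Two-pore channels. Kcnk3 was at 384 to 490 CPM in the 12 samples, with a log2 fold change with diabetes of 0.04 in Wt (95% interval -0.16 to 0.24) and 0.08 in Hif1a+/- (-0.12 to 0.28). Kcnk2, the stretch-sensitive TREK-1, was at 5.30 CPM and scattered widely within groups (2.68 to 8.63 CPM). Kcnk13, a halothane-inhibited channel known from microglia, was at 1.49, 0.748 and 1.90 CPM in diabetic Hif1a+/- and at 0.374, 0.728 and 0.450 CPM in non-diabetic Wt. These groups were separated by 0.748 against 0.728 CPM. Non-diabetic Hif1a+/-, at 1.48, 0.507 and 0.654 CPM, and diabetic Wt, at 0.554, 0.783 and 1.14 CPM, overlapped both of them. Separation upwards of diabetic Hif1a+/- from non-diabetic Wt was seen in 6 of 81 members and in 1098 of 14706 genes. In this comparison the log2 fold change of Kcnk13 was 1.39 (SE 0.46), with an adjusted p of 0.475 in edgeR, and 1.67 without replicate 72. The part of the macrophage and leukocyte markers, of which 6 of 9 were higher in this comparison at an unadjusted p below 0.05, was not tested.

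Calcium-activated potassium channels. Kcnn2, the SK2 channel, was at 7.66, 7.55 and 5.64 CPM in non-diabetic and 4.98, 3.92 and 5.77 CPM in diabetic Wt, and at 7.87, 5.80 and 8.25 CPM in non-diabetic and 4.93, 4.84 and 7.24 CPM in diabetic Hif1a+/-. Diabetic samples were mostly lower, with overlap in both genotypes. The log2 fold change averaged over genotypes was -0.44 (SE 0.15), with an adjusted p of 0.337 in edgeR, and -0.39 without replicate 72. Kcnn1, the SK1 channel, was the leader of this class, at 16.7 to 20.0 CPM. Kcnn3, the SK3 channel, was at 1.52, 2.38 and 2.03 CPM in diabetic Hif1a+/- and at 1.20, 1.02 and 1.26 CPM in diabetic Wt, without overlap. Non-diabetic Wt, at 1.81, 1.41 and 1.19 CPM, and non-diabetic Hif1a+/-, at 1.40, 1.58 and 1.06 CPM, overlapped both. Separation upwards with genotype after diabetic pregnancy was seen in 3 of 81 members and in 635 of 14706 genes. After diabetic pregnancy Kcnn3 had a log2 fold change with genotype of 0.76 (SE 0.25, adjusted p = 0.862 in edgeR), and of 0.61 without replicate 72.

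**Figure D5:**
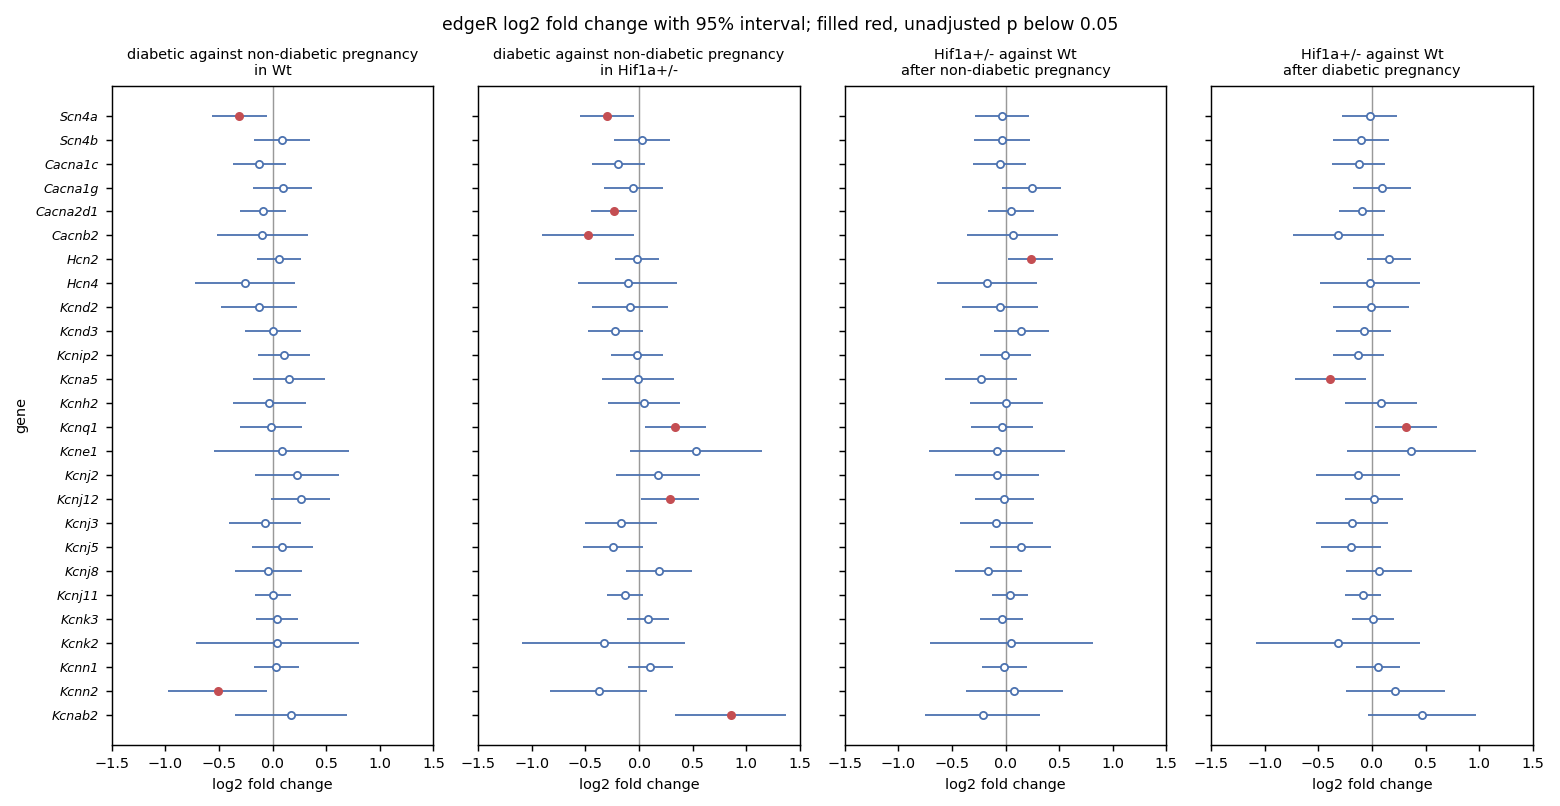
Log2 fold change (horizontal axis) with its 95% interval from edgeR for 26 channel genes in 4 comparisons; red filled points have an unadjusted p below 0.05. Intervals of Kcnk3 and Kcnj11 lie close to 0, whereas with diabetes in Hif1a+/- those of Cacnb2 and Cacna2d1, also abundant, exclude 0. Kcnab2 with diabetes in Hif1a+/- lies at 0.85.

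Of 6 ratios of partner genes in 7 comparisons (42 tests, exact permutation test, two-sided), the smallest p was 0.20, for Cacnb2 to Cacna1c with diabetes in Hif1a+/- (log2 difference -0.28), and every adjusted p was 0.972 or higher. With 3 against 3 samples the smallest p possible is 0.10, so no comparison of 2 groups could pass the threshold of 0.05.

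Genes that work with these channels were taken as lists. Of 31 tested partners and regulators, no gene passed edgeR's adjusted test; 3 were higher and 3 lower at an unadjusted p below 0.05 with diabetes in Hif1a+/-, where 5.72% of all genes were higher and 6.28% lower, and 0 with diabetes in Wt, where 2.78% of all genes had such a p. Rrad, a small GTP-binding protein that inhibits L-type calcium channels, was at 339, 338 and 285 CPM in diabetic Hif1a+/- and at 164, 235 and 171 CPM in non-diabetic Hif1a+/-, without overlap. Such separation upwards was seen in 1640 of 14706 genes in this comparison. The study also lists Rrad among its changed genes, for diabetic Hif1a+/- against non-diabetic Wt. There its log2 fold change was 0.80 (adjusted p = 0.318 in edgeR and 0.0217 in DESeq2). The list was made on these samples and so is no independent evidence. With diabetes in Hif1a+/- the log2 fold change of Rrad was 0.76 (SE 0.18), with an adjusted p of 0.214 in edgeR and 0.0135 in DESeq2. Without replicate 72 it was 0.73, with an adjusted p of 0.0735 in DESeq2, and that call was lost without non-diabetic Hif1a+/- replicate 14 or 44 (adjusted p up to 0.148). In the 6 Wt samples Rrad was between 141 and 230 CPM. Abcc9, the sulphonylurea receptor SUR2 of the ATP-sensitive channel, was at 432, 422 and 442 CPM against 551, 500 and 513 CPM in non-diabetic Hif1a+/- (log2 fold change -0.27, SE 0.09, adjusted p = 0.324 in edgeR, and -0.24 without replicate 72).

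Of 13 tested transcription factors of ventricular channel expression, Gata4 was lower with diabetes in Hif1a+/- at an unadjusted p below 0.05, at 152, 133 and 139 CPM against 147, 199 and 209 CPM (log2 fold change -0.39, SE 0.13, adjusted p = 0.30 in edgeR, and -0.34 without replicate 72), with overlap. No other factor had such a p in this comparison. Of 19 tested other ion channels of the heart, 2 were lower there at that p, beside 6.28% of all genes, and none was higher. One was Clcn3, a chloride-proton exchanger (log2 fold change -0.31, adjusted p = 0.283 in edgeR, and -0.25 without replicate 72).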

How the data were processed

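The authors trimmed reads with Trimmomatic, removed ribosomal and mitochondrial reads with SortMeRNA, aligned the rest to GRCm38 with STAR 2.5.2b and counted reads per gene of GENCODE M8 with htseq-count. The deposited counts were used as raw whole numbers for 46983 genes; the deposited normalised values were not used. Multiply aligned reads (12.4% to 17.0%) were not counted. Symbols came from GENCODE M21 of the same build. Strand use in counting is not given in the sources used here.

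Counts were tested by edgeR 4.0.16 (R 4.3.3) with TMM normalisation, the default low-count filter, 1 mean per group and 12 samples in 1 fit, and Benjamini-Hochberg adjustment over all 14706 genes kept, at 0.1. Alternatives were DESeq2 1.42.0, limma-voom 3.58.1, other scaling, filters and threshold, fits of the compared groups, and leaving out each sample. The scripts were tested on simulated data. Members and lists were chosen with earlier results of these data known. Genes named were fixed ventricular channels, the 3 highest per class, the 3 smallest p in each direction and comparison, and DESeq2 or edgeR calls. Kcnj10 alone failed the filter. Some genes are not reported here.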

Additional observations from a re-analysis of the deposited data

Results flagged for a closer look

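Kcnh7 was noted because every diabetic sample lay below every non-diabetic one in Wt and above every one in Hif1a+/-: the log2 fold change was -0.78 in Wt and 0.41 in Hif1a+/-. In Hif1a+/- the closest samples were at 1.016 and 1.006 CPM. Separation downwards in Wt was seen in 3 of 81 members and in 500 of 14706 genes. Separation upwards in Hif1a+/- was seen in 6 of 81 members and in 1640 of 14706 genes. The difference between both effects was tested as the interaction and did not pass after adjustment (unadjusted p = 0.0105, adjusted p = 0.998 in edgeR). Its exons overlap those of Gca on the other strand. The gene was at 0.477 to 1.32 CPM, and groups of 3 were not tested for outlying samples.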

How the results depend on the processing

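No member passed edgeR at 0.1, and 0 did so with DESeq2 size factors, with genes under 10 counts in any sample removed, at a threshold of 0.05, with any 1 sample left out, or, for the 5 comparisons of 2 groups, in fits of those groups alone. Other settings gave calls. For diabetes in Hif1a+/-, DESeq2 called 1 member (1.44% of all genes). Limma-voom called 3 there (Kcnq1, Kcnab2, Cacnb2), which is 3.70% of members tested, beside 6.37% of all genes. EdgeR without a filter also called 3, Kcnab2 and Cacnb2 among them (2.19% of all genes). Without a filter edgeR also called 1 for genotype after diabetic pregnancy (0.812% of all genes), 3 for diabetic Hif1a+/- against non-diabetic Wt (1.64%), 5 for diabetes averaged over genotypes (2.19%) and 3 for any difference (2.54%). DESeq2 called 1 for diabetes averaged over genotypes (1.46% of all genes). DESeq2 with each sample left out, added after seeing the data as was the same for list genes, gave 0 to 2 for diabetes in Hif1a+/- (0.289% to 2.80% of all genes), 0 to 1 for diabetic Hif1a+/- against non-diabetic Wt (0.0722% to 2.79%), 0 to 2 for averaged diabetes (0.368% to 4.69%) and 0 to 1 for any difference (0.464% to 2.18%); the cause was not tested. No fold change that the text names with an unadjusted p below 0.05 turned its direction in any alternative. No paired analysis was possible because the litter of each animal is not given in the sources used here. Whether Wt and Hif1a+/- animals shared a litter is therefore unknown, and litter was not modelled. Scarce members are limited by counts, and the 3 animals of a group by their spread.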
